A study of Mus musculus with 10 samples.

Results

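Ribosomal protein pseudogenes are copies of ribosomal protein mRNAs that were reverse-transcribed and inserted elsewhere in the genome, and 108 of them were measured above a low level in sorted mouse hematopoietic stem cells. The members were the genes whose symbol starts with Rpl or Rps and contains -ps and whose FPKM (fragments for each kilobase of a transcript, relative to all mapped fragments) was at least 1 in at least 5 of 10 libraries. The table held 291 ribosomal protein pseudogenes by symbol among 52096 genes. Of the 108 members, 63 were copies of large-subunit genes and 45 of small-subunit genes, and together they had 45 parent genes, the intron-containing genes they are named after. The level of the members therefore chose them and is given here as a description.

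The libraries came from bone marrow hematopoietic stem cells sorted by the surface pattern CD48-CD150+LSK, which selects lineage-negative marrow cells carrying Sca-1 and Kit. The 5 FL libraries were from Nup214fl/+ mice and the 5 HET libraries from Nup214fl/+,Tie2-cre mice, so that every group carried 1 floxed allele of Nup214, a nuclear pore component, and the Cre recombinase was present in HET alone. Tie2-cre is active in endothelium and in the blood cells that descend from it, and no group carried Cre without the floxed allele. Neither the ages of the mice nor a statement that each library was a separate mouse appears in the labels. A p-value below therefore measures the spread between these libraries, which may be technical.

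Ribosomal protein mRNAs are among the most abundant messages of a growing cell, and each encodes 1 subunit protein of the ribosome. Because the enzyme that makes retrocopies acts on abundant mRNAs, the mouse genome holds many intronless copies of these genes, most of them without a promoter of their own and with mutations that break the reading frame. A short read from a copy that still matches its parent cannot be assigned to either locus by sequence, and the share of such reads that a counting program gives to the copy depends on the program and its settings. The rule the authors used for such reads was not given in the sources used here, and the labels name no strand marking. The values below are what the deposited table assigns to each locus.

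Several pairs of sequences show what a read has to work with. Each pair gives 90 bases of the coding region, 5′ to 3′, of the pseudogene and of its parent, from GENCODE M21 transcripts on GRCm38. The printed bases are the stretch without gaps that held the most differences, not a typical stretch. Capitals mark the bases that differ. Rpl15-ps3, shown first because it had the highest level of all members, matched Rpl15 over its whole length of 615 bases. Its stretch lies at chr9:22186132-22186221 on the minus strand, outside any other annotated gene.
Rpl15-ps3: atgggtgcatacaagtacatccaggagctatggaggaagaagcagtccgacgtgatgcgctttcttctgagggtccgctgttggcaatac
Rpl15: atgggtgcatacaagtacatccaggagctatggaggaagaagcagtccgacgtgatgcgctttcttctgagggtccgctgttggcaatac

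Rps12-ps3 is shown because it was the member whose ratio to the parent passed a test, and its 494 bases also matched Rps12 throughout. Its stretch lies at chr19:59322371-59322460 on the plus strand, in an intron of Pdzd8, which is transcribed from the opposite strand.
Rps12-ps3: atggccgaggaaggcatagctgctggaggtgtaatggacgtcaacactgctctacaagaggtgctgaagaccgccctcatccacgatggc
Rps12: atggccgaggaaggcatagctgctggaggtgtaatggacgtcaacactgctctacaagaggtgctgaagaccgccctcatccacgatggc

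The next 3 pairs are from copies that differ from their parents in at least part of their 50-base stretches. Rps27-ps1 had the highest level among members with mostly their own sequence, Rps19-ps11 shared no 50-base stretch with any other annotated gene, and Rps6-ps1 had the lowest difference of its ratio to the parent, HET minus FL, among members with at least 50% such stretches. Their stretches lie at chr1:63073910-63073999 on the plus strand, in an intron of Ino80d on the opposite strand; at chr10:43373698-43373787 on the minus strand, in an intron of Pdss2 on the opposite strand; and at chr15:76337823-76337912 on the plus strand, outside other genes. They differed from the parent at 5, 9 and 6 of the 90 bases. Over the whole alignments of 244, 437 and 747 columns there were 10, 30 and 14 mismatches, and 3, 5 and 0 gap bases.
Rps27-ps1: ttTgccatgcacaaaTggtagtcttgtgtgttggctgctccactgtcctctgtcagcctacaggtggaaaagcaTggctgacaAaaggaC
Rps27: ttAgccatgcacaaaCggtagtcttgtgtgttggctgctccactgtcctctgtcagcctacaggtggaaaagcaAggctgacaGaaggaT
Rps19-ps11: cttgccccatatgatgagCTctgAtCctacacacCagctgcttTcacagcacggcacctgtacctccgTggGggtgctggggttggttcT
Rps19: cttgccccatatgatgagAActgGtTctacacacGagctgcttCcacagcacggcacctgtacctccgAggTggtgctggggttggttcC
Rps6-ps1: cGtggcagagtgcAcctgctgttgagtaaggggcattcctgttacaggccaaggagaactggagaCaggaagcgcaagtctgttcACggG
Rps6: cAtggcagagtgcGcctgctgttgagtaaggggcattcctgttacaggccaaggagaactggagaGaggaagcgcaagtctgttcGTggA

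For Rpl36a-ps3 the name and the sequence pointed to different parents, and it is shown for that reason. It shared no 50-base stretch with Rpl36a and 81.6% of its stretches with Rpl36al, a gene for a near-identical protein, to which it was 99.7% identical. Its stretch lies at chr6:136488842-136488931 on the plus strand, outside other genes, and differs from Rpl36al at 1 base. Its mean of 1.24 FPKM was 0.147% of Rpl36al. In the counts below the parent is the one in the name.
Rpl36a-ps3: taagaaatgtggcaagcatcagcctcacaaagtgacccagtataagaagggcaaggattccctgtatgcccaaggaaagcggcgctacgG
Rpl36al: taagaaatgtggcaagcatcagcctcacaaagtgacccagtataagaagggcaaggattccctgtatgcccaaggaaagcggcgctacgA

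The targeted gene and the sorted cell type were checked first. Nup214 stood at 65.82, 55.32, 52.17, 43.88 and 30.00 FPKM in FL 1 to FL 5 and at 31.19, 9.74, 17.42, 16.34 and 9.13 FPKM in HET 1 to HET 5, so that FL 5 lay just below HET 1 and the groups otherwise stood apart. Of 8 stem cell markers, 7 passed the level filter in the 10 libraries, with Kit, the receptor for stem cell factor, at 145 ± 24.2 FPKM (SD, n = 5) in FL libraries and 154 ± 35.8 FPKM in HET libraries, and Fgd5 did not pass. Genes of the granulocyte list, among them Mpo, the granule peroxidase, at 8250 ± 1147 FPKM in FL libraries and 9573 ± 1937 FPKM in HET libraries, were also abundant. Their summed levels were 9695 to 14164 FPKM in the FL libraries against 10619 to 17520 FPKM in the HET libraries, and 8 of 8 genes were higher in HET by the fitted difference. The 6 erythroid, 4 megakaryocyte and 6 macrophage markers were all lower in HET by their fitted difference. Of all 13041 genes passing the level filter, 10082 were lower too. The summed erythroid level was 1166 to 1792 FPKM in FL and 559 to 2314 in HET, and the macrophage level 211 to 386 and 79.8 to 397. Both pairs of ranges overlapped, while the megakaryocyte sums, 1765 to 2338 in FL and 954 to 1738 in HET, did not. The B cell list differed most in its sum, at 2556 to 10174 FPKM over the FL libraries against 7955 to 100937 FPKM over the HET libraries. This sum was mainly the immunoglobulin chains Ighm, at 1006 ± 424 FPKM in FL libraries against 11346 ± 12565 in HET libraries, and Igkc, at 4664 ± 2826 against 25321 ± 26640. The NK cell receptor gene Ncr1 averaged 0.972 ± 0.369 FPKM in FL libraries and 4.46 ± 3.30 in HET libraries, while the summed T and NK list covered 403 to 723 FPKM and 375 to 726 FPKM. Of the mitochondrial ribosomal RNAs, mt-Rnr1 averaged 1566 ± 628 FPKM in FL libraries and 892 ± 183 in HET libraries, and mt-Rnr2 12312 ± 4798 and 13813 ± 2789. No gene of these lists was at 0 in all libraries. In bulk samples fewer cells of a type and less RNA per cell cannot be told apart, and the part of these markers in the values below was not tested.

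The libraries FL 2 and HET 3 differed from the others in genes that blood cells do not use. The 1092 olfactory receptor genes, which serve smell in the nose, averaged 0.254 FPKM in FL 2 and 0.299 FPKM in HET 3, against 0.0144 to 0.0989 FPKM in the other 8 libraries. In both libraries 91.9% of these genes were above 0. The 183 ribosomal protein pseudogenes that missed the level rule averaged 0.980 FPKM in FL 2 and 1.75 FPKM in HET 3, against 0.114 to 0.531 FPKM elsewhere. The median FPKM of all 52096 genes was 0.21 and 0.24 in these libraries and 0 to 0.07 in the other 8. Several counts below are also given without them.

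The members spanned a wide range of levels. Mean FPKM over the 10 libraries ran from 0.789 for Rps12-ps10 to 280 for Rpl15-ps3, with a median of 4.22. In 3 members the mean was at least 100, in 35 at least 10, and in 26 below 2. The 10 highest members carried 54.9% of the summed mean level. In every library 60 of the 108 were at 1 FPKM or more, 18 were listed at 0 in at least 1 library, and 15 met the threshold in exactly 5 libraries. No member met the threshold through the libraries of 1 group alone.

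The level threshold cut through a continuous range. Rpl35a-ps7 and Rpl13-ps5 were the members nearest above it, with a 5th highest value of 1.0 and 1.01 FPKM. Rps18-ps1 and Rpl5-ps1 were nearest below it, at 0.95 and 0.88 FPKM. Rpl35a-ps7 stood at 0.42, 1.66, 0.73, 0 and 1.42 FPKM in FL and at 0, 1.21, 7.08, 0.33 and 1 in HET, with HET 3 far above the rest. Rpl13-ps5 stood at 0.60, 1.42, 0.94, 1.09 and 0.88 FPKM in FL and at 1.18, 1.01, 3.80, 0.82 and 0.74 in HET, again highest in HET 3. Rps18-ps1 was highest in FL 2, at 2.67 FPKM, and so was Rpl5-ps1, at 6.79 FPKM. Threshold and library thus met in the low members, since the highest value of these 4 came from FL 2 or HET 3.

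No member was above its parent. The parents had mean levels of 879 to 11833 FPKM, and the members stood at a median of 0.241% of the parent, from 0.0171% for Rpl13-ps5 to 9.53% for Rpl15-ps3. In 81 members the level was below 1% of the parent, and in 3, Rpl15-ps3, Rpl36a-ps2 and Rpl27-ps3, above 5%. The number of members per parent ran from 1, for 20 parents, to 7, for Rps19, which encodes a small-subunit protein mutated in Diamond-Blackfan anemia in humans. The 7 copies of Rps19 ranged from 28.8 FPKM for Rps19-ps6 to 1.71 for the identical pair Rps19-ps1 and Rps19-ps2. Rps2 and Rps12, which also encode small-subunit proteins, had 6 members each.

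Not all of these rows were separate measurements. Rpl35a-ps2, Rpl35a-ps3, Rpl35a-ps4 and Rpl35a-ps6 held the same sequence of 333 bases and the same value in every library, and Rps19-ps1 and Rps19-ps2 did the same. The 4 Rpl35a copies read 4.31, 5.06, 7.11, 14.15 and 15.29 FPKM in the FL libraries and 8.79, 17.82, 3.88, 13.30 and 6.26 in HET. HET 3 was their lowest library and the groups overlapped. The 108 members therefore held 104 distinct profiles.

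The large-subunit copies included the highest members. Rpl15-ps3, a copy of the gene for a large-subunit protein, stood at 136, 372, 180, 299 and 304 FPKM in FL and at 575, 253, 313, 207 and 162 in HET. HET 1 was far above the others and the groups overlapped, with means of 258 ± 97.3 and 302 ± 162 FPKM (SD, n = 5 each). Its parent Rpl15 ran between 2295 and 3591 FPKM and was lowest in HET 1, so the copy reached 25.05% of the parent in HET 1 against 4.99% to 14.7% in the other 9 libraries. Rpl36a-ps2, a copy of a large-subunit gene that lies in an intron of Ddah1 on the same strand, stood at 67.5, 80.5, 70.7, 111 and 197 FPKM in FL and at 80.8, 187, 165, 186 and 108 in HET. FL 5, HET 2, HET 3 and HET 4 were high, and the groups overlapped.

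Within their groups, 3 other large-subunit copies among the highest 10, Rpl10-ps3, Rpl31-ps8 and Rpl9-ps6, were highest in FL 5 and HET 2. Rpl10-ps3, a copy of the gene for a protein needed to join the subunits, stood at 29.1, 36.7, 30.1, 48.8 and 81.9 FPKM in FL and at 43.5, 92.2, 59.9, 87.6 and 62.9 in HET. Rpl31-ps8 had means of 48.8 ± 20.3 FPKM in FL and 63.5 ± 26.8 in HET, and Rpl9-ps6 of 44.9 ± 20.9 and 59.4 ± 17.0. In these 3 HET 1 lay within the FL range. Rpl10-ps3 and Rpl9-ps6 are annotated as protein coding, as are Rps12-ps3 and Rpl36a-ps1, and the remaining 104 members as pseudogenes.

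Among small-subunit copies Rps6-ps4 was the highest. Its parent encodes the ribosomal protein phosphorylated when growth signalling is active, and the copy stood at 82.4, 106, 93.7, 107 and 201 FPKM in FL and at 97.1, 159, 124, 157 and 135 in HET. FL 5 exceeded every HET library. As a share of the parent it was 4.15% ± 0.642 in FL and 3.78% ± 0.0371 in HET, a nearly fixed share of Rps6 in HET. The copy matched Rps6 over its whole length of 750 bases, so reads of the 2 cannot be told apart by sequence. The assignment of shared reads therefore bears on this share and was not tested. Rps27a-ps2, a copy of a gene for ubiquitin fused to a small-subunit protein, had means of 78.2 ± 18.9 FPKM in FL and 107 ± 35.3 in HET, and Rps2-ps10, a copy of the gene for a protein at the mRNA entry channel, of 53.1 ± 17.5 and 76.1 ± 23.6.

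**Figure D1:**
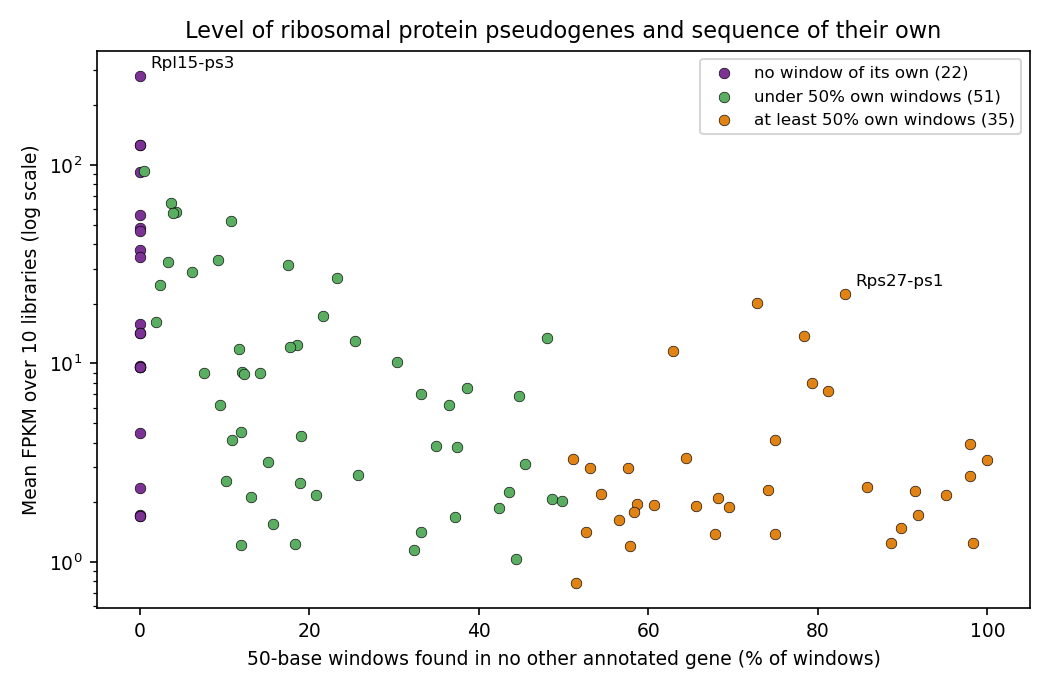
Mean FPKM over 10 libraries on a log scale (y axis) against the percentage of 50-base windows found in no other annotated gene (x axis), 1 point per member. The highest member without a window of its own is Rpl15-ps3 at 280 FPKM, and the highest member with at least 50% own windows is Rps27-ps1 at 22.4 FPKM.

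Levels were lower in copies with more sequence of their own. A window of a pseudogene, any stretch of 50 bases, was called its own when no other gene annotated in GENCODE M21 held it on either strand. By this measure 22 members had no window of their own, 51 had some but under 50%, and 35 had at least 50%. Median mean FPKM was 14.2, 6.86 and 2.19 in these classes, and the median share of the parent was 1.12%, 0.337% and 0.101%. Without both FL 2 and HET 3 the median mean FPKM of the classes was 13.5, 6.39 and 1.55. Of the 20 highest members, 9 were in the first class, 11 in the second and none in the third, and 18 were at least 99% identical to the parent. These classes were chosen after the levels were known, and the relation is a description over members that share parents.

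Members with mostly their own sequence can be told from the parent in most of their length. Rps27-ps1, 94.7% identical to the parent and with 83.2% own windows, stood at 7.59, 21.73, 21.27, 18.52 and 25.92 FPKM in FL and at 18.18, 19.60, 36.16, 25.28 and 29.85 in HET. It was above 7 FPKM in every library, and the groups overlapped.

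Compared with the ribosomal protein pseudogenes that missed the level rule, the members resembled their parents more. Median identity to the parent was 98.8% in the members (25% to 75% range 96.6% to 99.6%) and 92.4% in 182 of the 183 others, since Rpl48-ps1 had no parent by name. The median share of own windows was 24.3% in the members and 79.4% in the others. The parent's reading frame was kept in full in 55 members, or 50.9%, and in 41 others, or 22.5%. All 108 members had a single exon. The rule used FPKM and not sequence, but the FPKM of a copy that matches its parent depends on how shared reads are assigned. These differences in sequence may therefore not be independent of the rule, and they were not tested.

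The members also lay in other genes more often than the rest did. Of the 108, 32 lay in an intron of a gene on the opposite strand, 14 in an intron on the same strand, 4 overlapped an exon, and 58, or 53.7%, overlapped no other gene, against 78.7% of the others. Median mean FPKM was 7.85 for members in an intron on the same strand, 5.87 on the opposite strand and 3.32 outside genes. Rps23-ps1, a copy of the gene for a protein of the decoding centre, overlapped an exon of Gm5148 on the opposite strand, and both rows had similar means, 47.9 and 44.9 FPKM. Without strand marking, reads of such partners cannot be told apart.

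**Figure D2:**
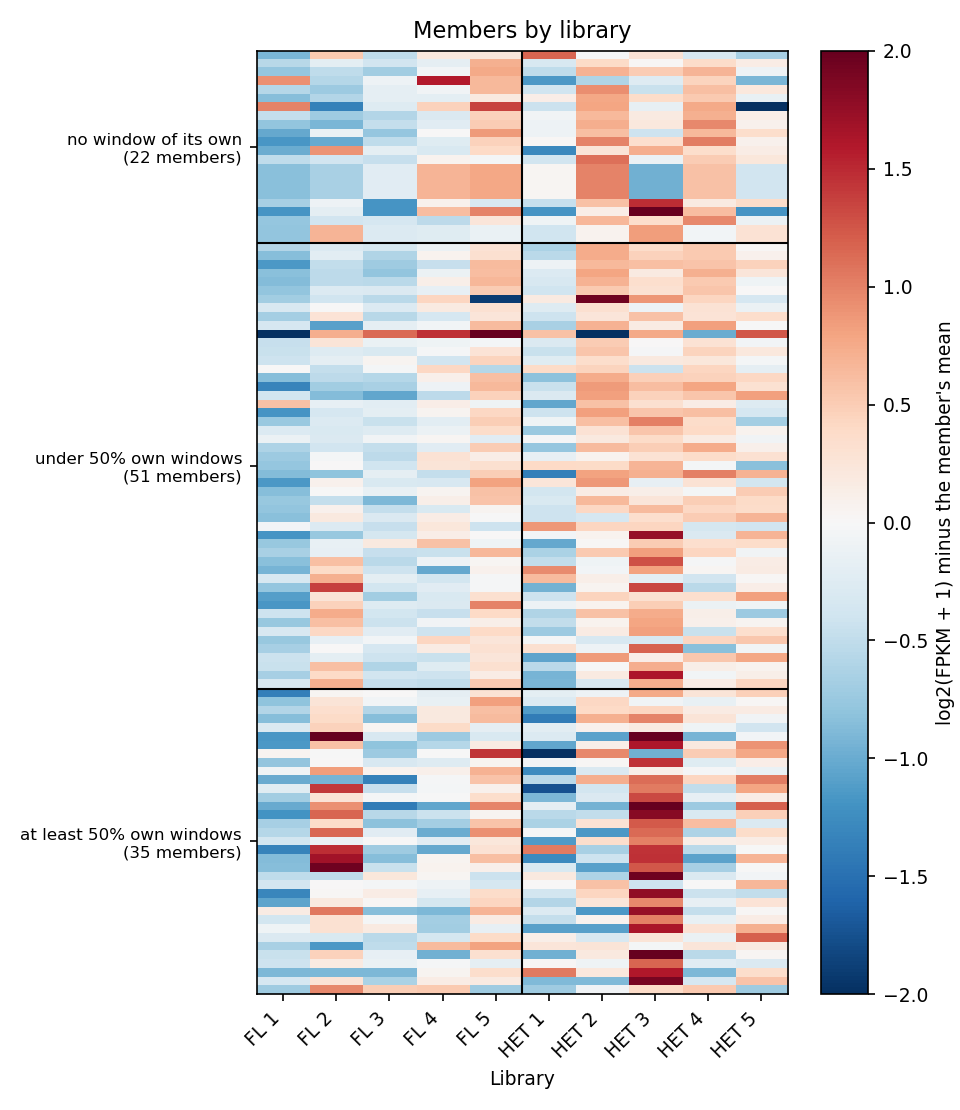
Deviation of log2(FPKM + 1) from the member's own mean (color, cut at −2 and 2) for 108 members (rows, grouped by the share of own windows and sorted by level within a class) in 10 libraries (columns). The lowest block, members with at least 50% own windows, is mostly red in HET 3 and often in FL 2, the middle block in HET 3, HET 2, HET 4 and FL 5, and the top block in HET 2, HET 4 and FL 5.

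The library in which a member was highest differed between the classes. Of the 35 members with at least 50% own windows, 29, or 82.9%, were highest in FL 2 or HET 3, against 18 of 51, or 35.3%, in the middle class and 5 of 22, or 22.7%, among those with none. HET 2 held the highest value of 17 members in the middle class and 7 with none, and of 0 with at least 50%. The median FPKM of the class with at least 50% own windows was 3.05 in FL 2 and 5.88 in HET 3 and between 0.88 and 2.68 in the others. The class with no own window had its highest medians in HET 2, at 21.6 FPKM, HET 4, at 20.02, and FL 5, at 17.4, the same 3 libraries in which the summed level of the parents was highest, 153966 to 159701 FPKM against 96405 to 127504 in the other 7. FL 2 and HET 3 were also the libraries with the most signal in olfactory receptor genes. The part of that signal in the levels of the pseudogenes was not tested.

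**Figure D3:**
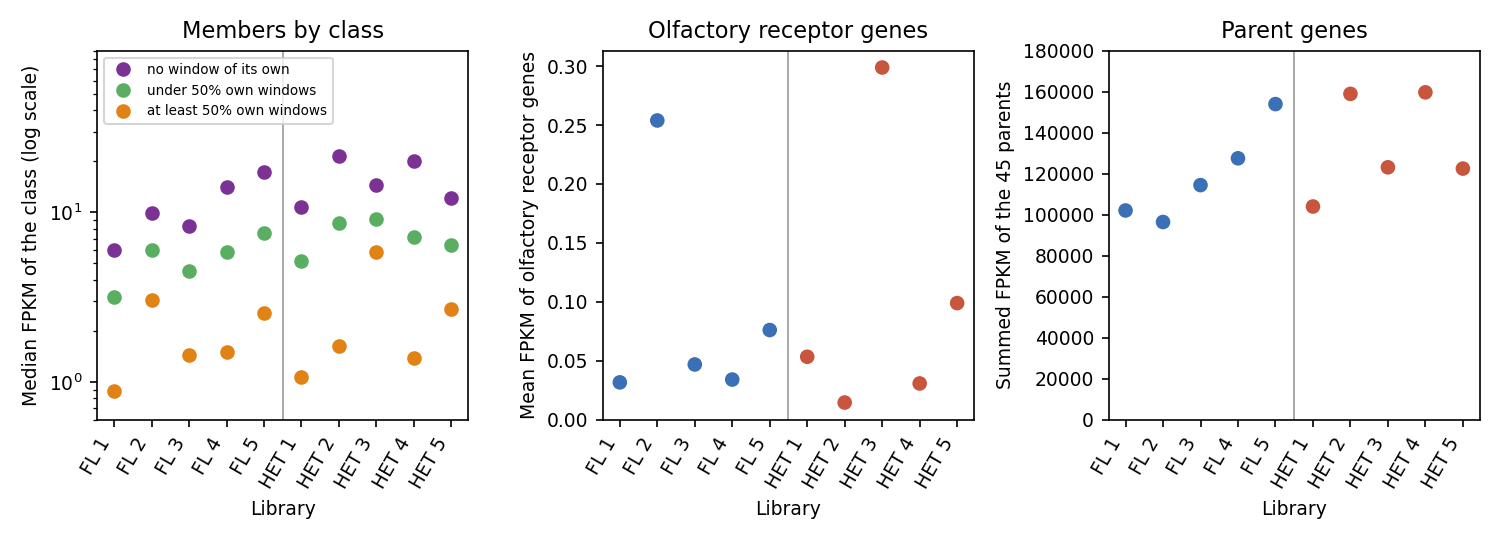
Left, median FPKM of each class of members on a log scale; middle, mean FPKM of 1092 olfactory receptor genes; right, summed FPKM of the 45 parents; each for the 10 libraries, with blue for FL and red for HET in the middle and right panels. FL 2 and HET 3 stand out in the middle panel, at 0.254 and 0.299 FPKM, and HET 3 has the highest median, 5.88 FPKM, of the members with at least 50% own windows.

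The comparison of HET with FL asked whether loss of 1 Nup214 allele moved these transcripts. No member passed the test: limma on log2(FPKM + 1) with Benjamini-Hochberg adjustment over 13041 genes called 0 members and 0 genes at 0.05 (0% of genes), and the lowest adjusted p of a member was 0.472. At an unadjusted p below 0.05, 15 members were higher and 2 lower in HET, against 1.44% and 8.95% of all genes (10.4% in either direction). The 15 became 32 without HET 1 (2.87% of genes), 29 without FL 5 (2.73%), 9 without FL 1 (0.82%), 7 without both FL 2 and HET 3 (0.652%) and 23 with the replicate number as a block (1.81%), and the 2 lower members became 0 without FL 5, HET 1 or HET 2. By the sign of the fitted difference 94 of 108 members were higher in HET, with a median log2 difference of 0.32, where 22.7% of all genes were above 0 and their median was −0.17. No member had groups that did not overlap, against 0.506% of genes.

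The parents and the other ribosomal protein genes leaned the same way. Of the 45 parents 41 were higher in HET with a median log2 difference of 0.21, and of all 79 cytosolic ribosomal protein genes 72 were, with a median of 0.22. Leaving out 1 library moved the median of the parents to 0.11 without FL 2, 0.12 without HET 2 or HET 4 and 0.33 without FL 5. No gene of either list was called. The 72 other genes with -ps in the symbol that passed the same level filter divided into 34 higher and 38 lower, with a median of −0.05. The lists were chosen with results of these data known, and their counts carry no test.

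How many members were higher depended on single libraries. Without HET 3 the count fell from 94 to 73 members (21.7% of all genes above 0), without FL 1 to 77 (24.8%) and without both FL 2 and HET 3 to 84 (24.8%). With the columns rescaled by median ratios, which moved the median of all genes from −0.17 to 0.01, 98 members were higher with a median of 0.45, where 51% of genes were. Without FL 5, the library with the lowest Nup214 of its group, 5 members were called higher in HET (0.23% of genes were called higher and 3.14% in either direction), namely Rpl3-ps1, Rpl23a-ps3, Rpl10a-ps1, Rps12-ps3 and Rps16-ps2. Of these, Rpl10a-ps1, Rps12-ps3 and Rps16-ps2 had no window of their own and Rpl3-ps1 had 4.31% own windows. In the same fit 0 parents were called, but 43 of 45 were higher, with a median of 0.33, where 2632 of 13041 genes were. At an unadjusted limma p below 0.05, 13 parents were higher, against 2.73% of genes. The ratio of copy to parent, described below, was called in 1 of 155 pairs without FL 5. With quality weights for the libraries 43 members were called, all higher (4.87% of genes were called higher and 52.7% in either direction), and without both FL 5 and HET 1, whose Nup214 levels crossed, 32 were, all higher (3.44% and 45.7%). Of the 45 parents, 31 were called higher with quality weights and 22 without both FL 5 and HET 1. Median-ratio scaling called 0 members (0.00767% of genes). The summed level of the members was 1645 ± 517 FPKM over the FL libraries and 2017 ± 345 FPKM over the HET libraries (SD, n = 5 each), with ranges of 1123 to 2419 and 1632 to 2394 that overlapped.

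The members with the smallest p for a higher level in HET were Rpl23a-ps3, Rps12-ps3 and Rpl3-ps1. Rpl3-ps1, a copy of the gene for a protein beside the peptidyl transferase centre, stood at 23.5, 37.5, 32.1, 38.4 and 82.7 FPKM in FL and at 49.6, 84.4, 81.3, 79.1 and 73.2 in HET. All 5 HET libraries were above 4 of the 5 FL libraries, and FL 5 lay among the HET values. Its log2 difference was 0.87 ± 0.28 (SE), with an adjusted p of 0.472 in the limma fit. Rpl23a-ps3, a copy of the gene for a protein at the exit tunnel of the ribosome, stood at 7.88, 5.38, 4.65, 7.06 and 14.97 FPKM in FL and at 8.46, 19.46, 14.96, 16.13 and 19.39 in HET, and again only FL 5 reached into the HET range. Its log2 difference was 0.94 ± 0.29 (SE; limma adjusted p 0.472).

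The members with the smallest p for a lower level in HET were Rpl27-ps3, Rps6-ps1 and Rps2-ps9. Rpl27-ps3, a copy of a large-subunit gene without a difference from its parent over the aligned length, stood at 146, 51.8, 71.8, 233 and 122 FPKM in FL and at 34.4, 50.4, 64.3, 105 and 40.4 in HET. FL 1, FL 4 and FL 5 were above every HET library, and FL 2 and FL 3 lay within the HET range. Its log2 difference was −0.99 ± 0.42 (SE; limma adjusted p 0.472), while Rpl27 itself had one of 0.21 ± 0.23. Rps6-ps1 stood at 2.80, 6.21, 3.24, 3.35 and 5.55 FPKM in FL and at 0.69, 2.30, 3.38, 2.97 and 2.68 in HET, with a log2 difference of −0.64 ± 0.28 (SE; limma adjusted p 0.472), and its groups overlapped. Rps2-ps9, with 79.3% own windows, averaged 8.57 ± 2.20 FPKM in FL and 7.46 ± 1.31 in HET, a log2 difference of −0.16 ± 0.18 (SE) whose sign turned with median-ratio scaling, to 0.02.

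**Figure D4:**
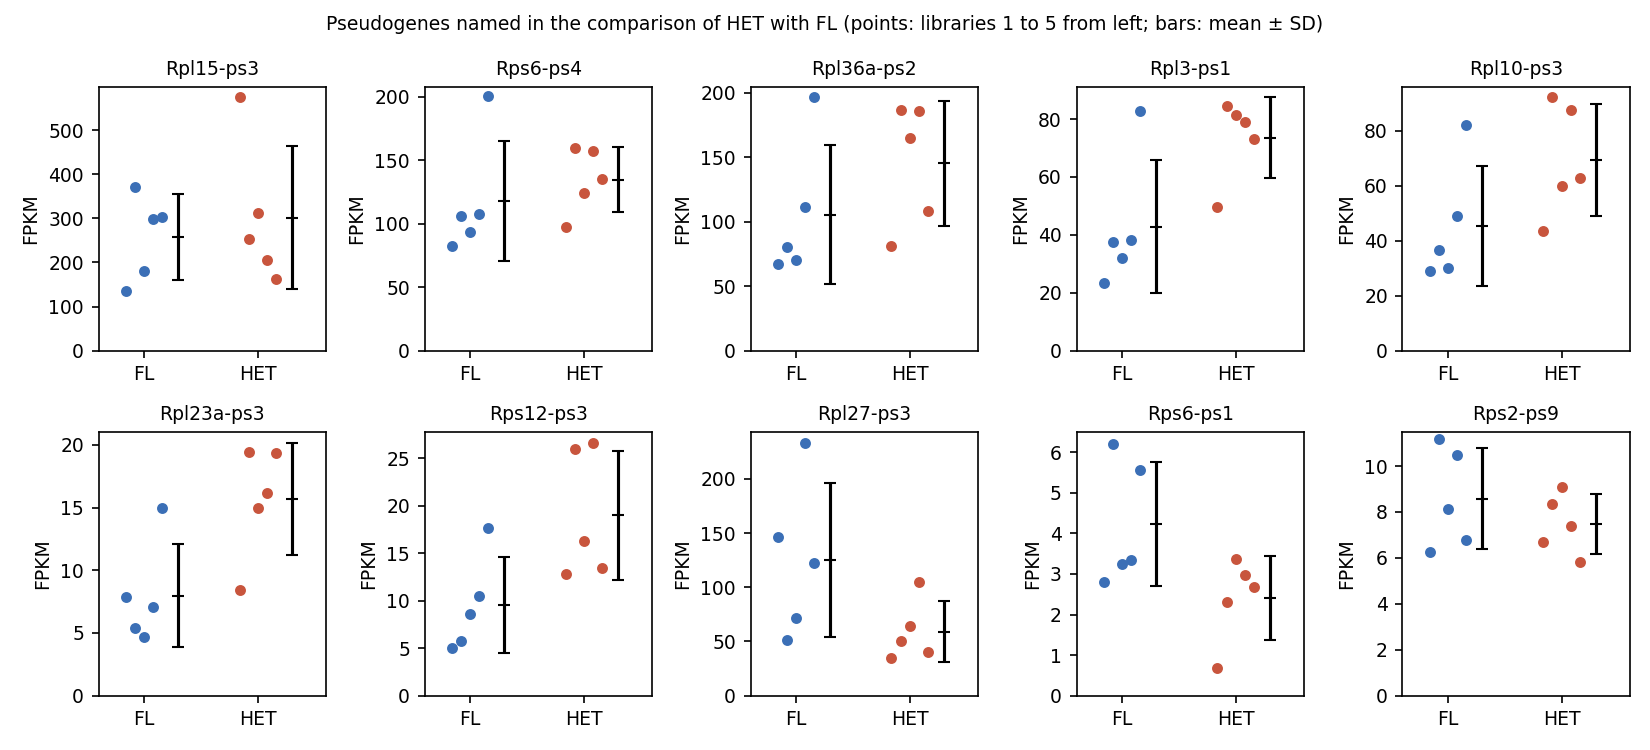
FPKM of 10 named pseudogenes in the libraries of FL (blue) and HET (red), 1 point per library in the order 1 to 5 from left, with the mean and SD of each group as bars. In Rpl3-ps1, Rpl23a-ps3 and Rps12-ps3 only FL 5 reaches the HET range, and in Rpl27-ps3 HET averages 58.9 FPKM against 124.9 FPKM in FL.

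Whether a copy moved apart from its parent was tested on the difference of their log2 values, over 155 pairs of any gene family. One pair was called by limma with Benjamini-Hochberg adjustment over the pairs (0.645% of pairs), Rps12-ps3 with Rps12, a small-subunit gene. Rps12-ps3 stood at 5.06, 5.76, 8.58, 10.51 and 17.65 FPKM in FL and at 12.78, 25.96, 16.22, 26.58 and 13.40 in HET. Rps12 stood at 958, 876, 1215, 1354 and 1730 FPKM in FL and at 998, 1689, 1104, 1676 and 995 in HET. The copy was 0.528%, 0.657%, 0.706%, 0.776% and 1.02% of the parent in FL and 1.28%, 1.54%, 1.47%, 1.59% and 1.35% in HET.

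All 5 HET shares of Rps12-ps3 were above all 5 FL shares, although FPKM of the copy overlapped between the groups through FL 5. The log2 ratio was higher in HET by 0.91 ± 0.17 (SE, n = 5 each), with an adjusted p of 0.0410. That call was lost when any 1 library other than FL 5 was left out, with an adjusted p of 0.0566 to 0.168, and without FL 5 it was 0.0159. The log2 difference of the ratio itself stayed between 0.82 and 1.01 in these 10 fits. The call was also lost, by adjusted p, with the replicate number as a block, at 0.229, with a pseudocount of 0.1, at 0.0846, without a filter, at 0.158, and without FL 2 and HET 3, at 0.0758, where the log2 difference was 0.91, 0.99, 0.91 and 0.88. The copy had no 50-base window of its own, and 25 other annotated genes shared its windows, so the assignment of shared reads bears on this ratio and was not tested.

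Other pairs were apart between the groups without passing the test. The ratio was higher in HET in 76 of 108 members, where 66.5% of the 155 pairs were. The 108 members are themselves among the 155 pairs, so the shares of pairs given here are not an outside reference. At an unadjusted p below 0.05 were 12 members, 10 higher and 2 lower, against 9.68% of pairs. The ratios of 5 of the 108 members did not overlap between FL and HET, a count near the share over all pairs (4.52%). Of them, Rps12-ps3, Rpsa-ps10 and Rps16-ps2 were higher and Rpl27-ps3 and Rps6-ps1 lower in HET. Without HET 3 the ratio was higher in HET in 57 members (52.3% of pairs), and without both FL 2 and HET 3 in 71 (63.9%).

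Among these 5 the lower ratios had the larger differences. Rpl27-ps3 was 16.3%, 6.54%, 6.45%, 19.3% and 7.77% of Rpl27 in FL and 4.05%, 3.11%, 5.21%, 6.07% and 3.84% in HET, and all HET shares were below all FL shares. Its log2 ratio differed by −1.203 ± 0.35 (SE; limma adjusted p 0.240). Like Rps12-ps3 and Rps16-ps2, Rpl27-ps3 had no 50-base window of its own. The assignment of shared reads therefore bears on its ratio and was not tested. Rps6-ps1 was 0.125%, 0.301%, 0.128%, 0.117% and 0.124% of Rps6 in FL and 0.0272%, 0.0539%, 0.103%, 0.0716% and 0.0753% in HET, also without overlap, and its log2 ratio differed by −1.004 ± 0.28 (SE; limma adjusted p 0.240). With 51.1% own windows, this copy can be told from Rps6 in part of its length. Rpsa-ps10, a copy of the gene for a small-subunit protein also known as the laminin receptor, averaged 8.74 ± 5.34 FPKM in FL and 15.5 ± 5.05 in HET, and its log2 ratio to Rpsa was higher by 0.60 ± 0.19 (SE; limma adjusted p 0.314).

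**Figure D5:**
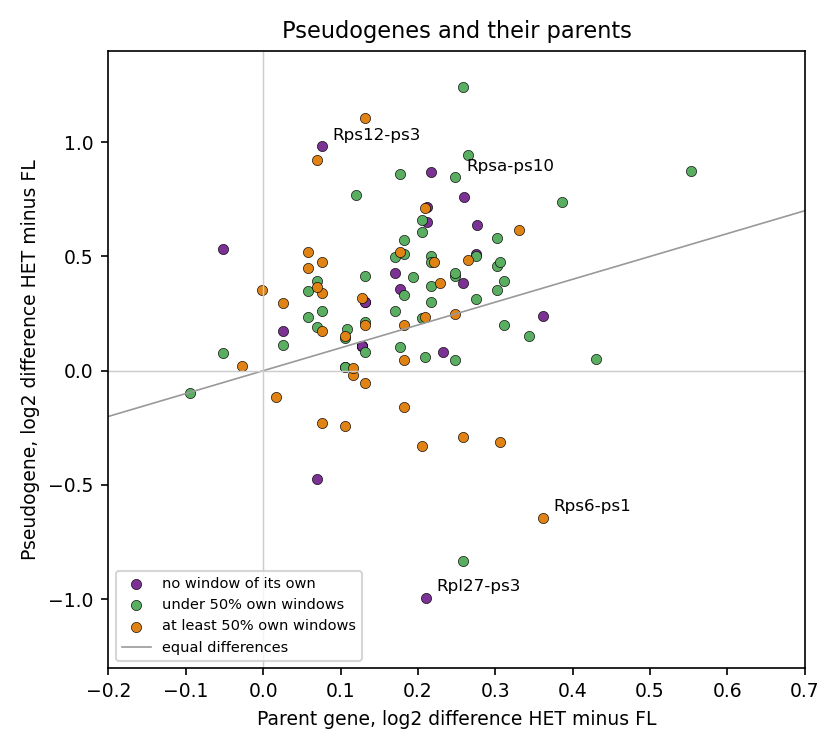
Fitted log2 difference HET minus FL of each member (y axis) against that of its parent (x axis), colored by the share of own windows, with the line of equal differences. The parents lie between −0.09 and 0.55 and the members between −0.99 and 1.24, with Rps12-ps3 above the line and Rps6-ps1 and Rpl27-ps3 below it.

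The sign of the difference was mixed most often where copies had sequence of their own. In HET 20 of 22 members without own windows and 49 of 51 in the middle class were higher, against 25 of 35 with at least 50% own windows, and the differences between classes were not tested. Without HET 3 these counts were 18, 41 and 14, and without both FL 2 and HET 3 they were 19, 46 and 19. The median log2 difference of the members with at least 50% own windows went from 0.23 to −0.03 without HET 3 and to 0.05 without both. Rps19-ps11, the member without a shared window, stood at 0.79, 0.89, 0.41, 2.55 and 4.38 FPKM in FL and at 1.5, 4.98, 6.83, 3.85 and 6.36 in HET. HET 3 was its highest library and the groups overlapped. Its log2 difference was 1.10 ± 0.40 (SE; limma adjusted p 0.472), and that of its ratio to Rps19 0.97 ± 0.36 (SE; limma adjusted p 0.346). Without both FL 2 and HET 3 these differences were 0.87 ± 0.46 (SE; limma adjusted p 0.908) and 0.76 ± 0.39 (SE; limma adjusted p 0.569).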

How the data were processed

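RNA was extracted with a miRNeasy kit, amplified by Geo-seq, a low-input method, and turned into sequencing libraries with a TruePrep kit, per the labels' protocols. The authors deposited gene FPKM with 2 decimals for 52096 Ensembl genes. The submitters' processing notes name build mm10, and, per the same notes, HTSeq, DESeq2, Cufflinks 2.1.1 and Bowtie 0.12.9 were used in roles that are not described. The handling of multi-mapped reads was not given in the sources used here. Read counts and depth were not given, so no counting intervals are given. An earlier account of these data took HET 3 as the shallowest library. A low quantile of FPKM times length in kilobases, over genes above 0, was 0.108 in HET 3. In the other libraries it was 0.0437 to 0.0754. The part of depth in the values of HET 3 was not tested.

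All 52096 identifiers matched GENCODE M21 (GRCm38), which supplied symbols, coordinates and transcript sequences. Each pseudogene was aligned locally to its parent's transcripts (Biopython 1.88; match 2, mismatch −3, gap opening −5, extension −2). Genes meeting the level rule of the members, 13041 in all, were tested with limma 3.58.1 in R 4.3.3 on log2(FPKM + 1), with trend and robust moderation, group alone as a term and Benjamini-Hochberg adjustment at 0.05. Differences on this scale understate those of low genes. The ratio fit used log2(FPKM + 1) of copy minus parent over 155 pairs. Scripts were tested on simulated data. Members, lists and tests were chosen with earlier results of these data known. Named were the 10 highest members, the 3 smallest p in each direction, the 2 on each side of the level threshold, the 2 smallest ratio p in each direction and members passing a test; others, the own-window classes, the olfactory receptor genes and the printed pairs were chosen after their values were seen. Alternatives covered pseudocount, filter, scaling, moderation, quality weights, replicate block and libraries left out; those without FL 2 and HET 3, with other window lengths and with identical rows merged were added after seeing the data.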

Additional observations from a re-analysis of the deposited data

Results flagged for a closer look

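Of 38 groups of 5 libraries tested with Dixon's criterion (17 named members, Nup214 and the summed member level), 4 held a library far from the others, and chance gives about 1 in 20. Rps6-ps4 in FL 5, at 200.62 FPKM, lay above the next FL library at 107.41. Rpl3-ps1 in FL 5, at 82.70 FPKM, lay above the next at 38.37; FL 5 also had the lowest Nup214 of its group and its highest summed parent level. Rpl35a-ps7 in HET 3, at 7.08 FPKM, lay above the next HET library at 1.21, and Rpl13-ps5 in HET 3, at 3.80 FPKM, above the next at 1.18; HET 3 also had the highest mean of olfactory receptor genes.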

How the results depend on the processing

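Calls of genes, members and parents rose most with quality weights and without both FL 5 and HET 1, the libraries whose Nup214 levels crossed. That pair was chosen with its Nup214 levels known, so the rise without it is not an independent result. Without HET 1 alone 1 gene and 0 members were called. With quality weights 6869 genes, 43 members (all higher in HET, where 4.87% of genes were called higher), 31 parents and 3 ratio pairs were called; without both FL 5 and HET 1 it was 5954 genes, 32 members (all higher, 3.44% of genes) and 22 parents. Median-ratio scaling called 1 gene. Leaving out single libraries gave 0 to 409 genes, 0 to 5 members, 0 parents and 0 to 1 ratio pairs. Ratio pairs called numbered 0 with a pseudocount of 0.1, without a filter or without FL 2 and HET 3, and 2 with FPKM of at least 1 in all libraries. The cause was not tested. The member count was 60 with FPKM of at least 1 in all 10 libraries and 224 in at least 1 library; 17 members had at least 50% own windows at 31 bases. The replicate block called 0 ratio pairs, ending the call of Rps12-ps3, and 0 genes and members as without it; same-numbered libraries correlated at −0.17 to 0.23 in their deviations and only numbers 1 and 4 matched best, so the numbers were not taken to pair libraries.

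Signs turned for members near 0. Rpl15-ps3 ran from −0.0925 to 0.362 (log2) when single libraries were left out, at −0.0316 without FL 1 and −0.0925 without HET 1, and was −0.0104 without FL 5 and HET 1. Rps2-ps9 was 0.0197 with median-ratio scaling. Rpl35a-ps7 ran from −0.158, without HET 3, to 0.596 and was −0.00405 without FL 2 and HET 3, and Rpl13-ps5 ran from −0.0280, without HET 3, to 0.338. The summed level stayed higher in HET in all alternatives run, by 242 to 566 FPKM when single libraries were left out. Without depth, differences among members below 2 FPKM cannot be set against counting error.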
